A study of Arabidopsis thaliana with 12 samples.

Results

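Expansins and xyloglucan endotransglucosylase/hydrolases (XTHs) are the wall-modifying proteins compared here across wild-type Arabidopsis and the cuticular mutants bdg, fdh and lcr. A gene entered the comparison when a probe set of the ATH1 array named it alone and its symbol, or a listed alias such as TCH4 or the XTR names, placed it in one of these families. This gave 33 genes, 19 expansins and 14 XTHs, of 71 family genes in the RefSeq table of assembly TAIR10.1 and of 22746 probe sets tested. The other 38 family genes had no probe set naming them alone and are not analysed here. The platform annotation named 29 of the 33. The names of the other 4, XTH15, XTH22 (TCH4), XTH23 (XTR6) and XTH24, came only from the study's list of genes up-regulated on these same arrays. A higher level in at least 1 mutant was therefore a condition for their entry. Their difference from wild type is thus a description, and a call of them is no test of it. Counts are also given over the other 29.

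Expansins loosen the primary wall without cutting its polymers, by weakening contacts between cellulose and the polysaccharides around it. EXPA proteins act in acid-induced wall extension, EXPB proteins are their relatives, and EXLA and EXLB are expansin-like proteins for which no wall-loosening activity has been established. XTHs cut xyloglucan, the main hemicellulose of the primary wall of dicots, and join the cut end to another xyloglucan chain, and some members hydrolyse it instead. In leaves both families are known for their part in cell expansion, and several XTHs respond to touch, hormones or wounding.

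Young rosette leaves, 2 mm to 1 cm long, were taken from soil-grown plants 5.5 weeks old, kept in 8 h days at 20 °C and 16 h nights at 18 °C. Wild type was Columbia-0. The bdg plants carried bdg-2, a deletion of 7 bp in the first exon of BODYGUARD, which encodes an extracellular protein of the α/β-hydrolase fold. The fdh plants carried fdh-3940 (written fdh-3940S1 in the study's methods), an insertion of 2 bp in the first exon of FIDDLEHEAD, which encodes a 3-ketoacyl-CoA synthase-like enzyme. The lcr plants carried lcr-3P77, an insertion of 1169 bp in the 5′ untranslated region of LACERATA, which encodes a cytochrome P450 fatty acid hydroxylase. Each genotype had 3 arrays, 1 per biological replicate, and each replicate pooled leaves of 15 plants, so each mutant is represented by a single allele. In such bulk leaf RNA, more cells of a type and more RNA per cell cannot be told apart.

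Levels are given as log2 expression values, 1 for each probe set and array. The medians of the 12 arrays lay between 4.56 and 4.70, and a value under 4.56 was not shown to be above background. This limit is a convention, as no detection call was made and a large share of any array lies under its median. Among leaf and other markers, the mesophyll gene LHCB4.1 had a mean of 14.0 in wild type, and the meristem gene CLV3 had a wild-type mean of 2.09. Of the marker lists, 1 of 2 senescence genes and 1 of 4 trichome genes had a named probe set, while the root, flower and dividing cell lists had 0 each. The wild-type mean of the senescence gene SAG13 was 2.95 ± 0.94 (SD, n = 3), and the means of bdg, fdh and lcr were 4.82 ± 0.58, 6.17 ± 0.80 and 4.56 ± 0.08. For the trichome gene TRY the wild-type mean was 8.64 ± 0.86, and those of the mutants in that order were 7.96 ± 0.86, 6.85 ± 0.25 and 7.34 ± 0.48. Rank Product, explained below, called SAG13 higher in bdg (pfp 0.031) and fdh (0.0058) but not in lcr (0.070), and TRY lower in fdh (0.045) but not in bdg (0.79) or lcr (0.22). Their part in the results below was not tested. WT array 2 and bdg array 1 carry a remark in the quality control published with the arrays, that the ratio of 3′ to 5′ signal of a control transcript was slightly disturbed.

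Many of the 33 genes were not shown to be above background in these leaves. On all 12 arrays 13 of them, 9 expansins and 4 XTHs, stayed under the lowest array median, between 1.82 and 3.25. The share of all probe sets that did so was not determined, so the count is not shown to be particular to these families. The range of these 13 genes over the 12 arrays was at most 0.52, and their difference from wild type was at most 0.16 in any mutant. This group held EXPA7, EXPA18 and XTH26, which are known from root hairs, and XTH21, known from the growing root, besides EXLA3, EXLB2, EXPA20, EXPA21, EXPA24, EXPB2, EXPB5, XTH20 and XTH29. For these genes a difference between genotypes was not detectable. Another 9 genes, 5 expansins and 4 XTHs, lay above the lowest array median on every array, and 11 lay above it on some arrays only.

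**Figure D1:**
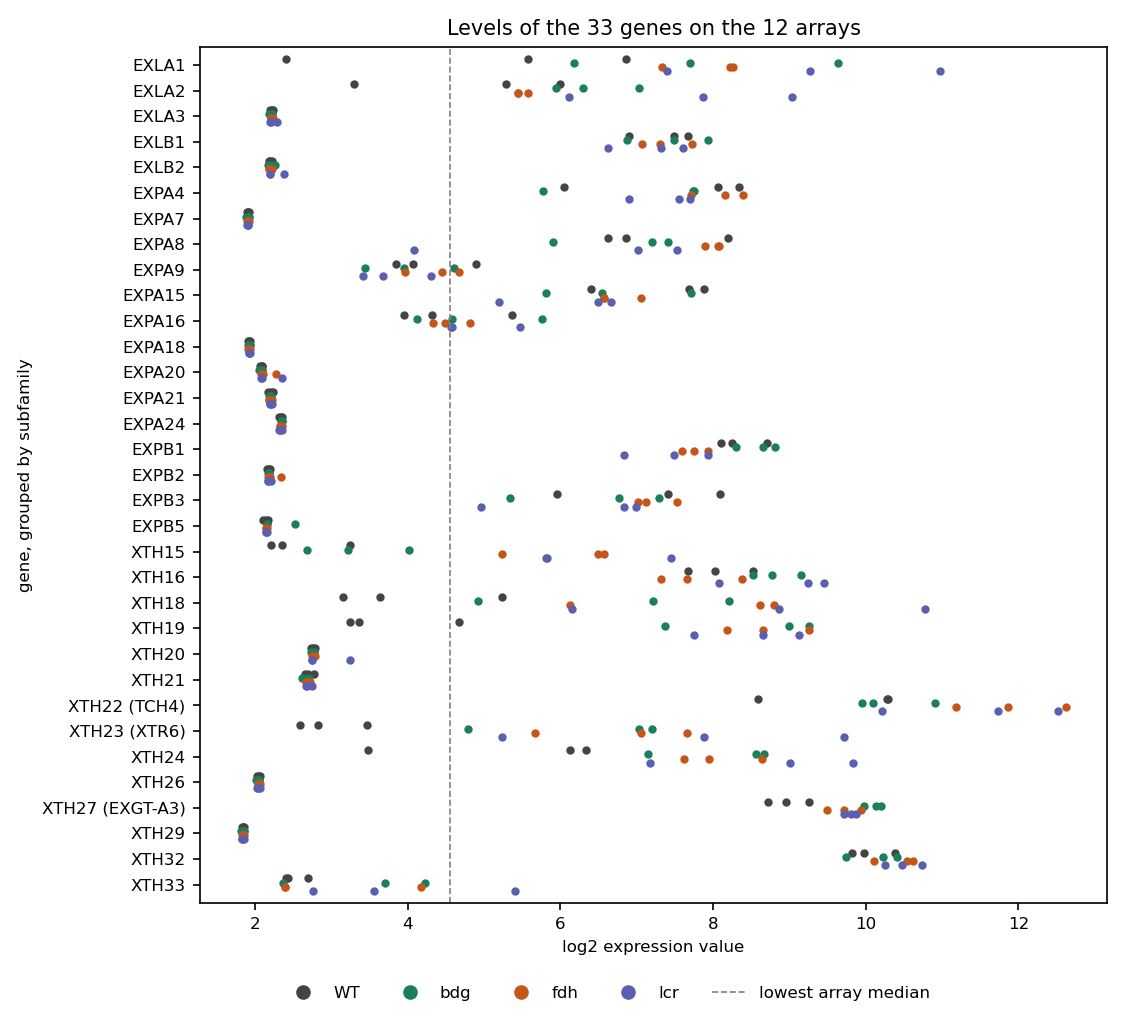
Log2 expression values of the 33 genes, one row per gene and one point per array, coloured by genotype, with the lowest array median (4.56) as a dashed line. The 13 genes at the left stay under 3.25 on all arrays, while XTH15, XTH18, XTH19 and XTH23 have most wild-type points left of the line and points of fdh and lcr right of it.

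Among the 29 genes named by the annotation, XTH18, XTH19 and the expansin-like EXLA1 were called higher by Rank Product in all 3 mutants, by 2.77 to 4.93 on the log2 scale. EXLA2 was called higher in lcr by Rank Product, and limma, which also called XTH19 in all 3, added XTH27 in bdg and fdh. No true expansin (EXPA or EXPB) was called. In no mutant did either test call more than 1.69% of all probe sets higher or 0.633% lower. At such shares the lack of a call among so few genes is no result about them. Of the 4 genes that entered through the list of up-regulated genes, XTH23 and XTH24 had every mutant array above every wild-type array, XTH15 those of fdh and lcr, and XTH22 those of fdh. Their entry as up-regulated genes favoured this separation, so it is a description only.

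Rank Product, the method of the study, was used to compare each mutant with wild type. It ranks the fold changes of all pairs of arrays and estimates the proportion of false positives (pfp) from permutations. A second test, limma, sets the difference against the spread between arrays (adjusted p after Benjamini-Hochberg). A gene was called at a pfp or an adjusted p under 0.05. Rank Product called 5 of the 33 genes higher in bdg, where it called 0.519% of all probe sets higher. It called 7 of 33 higher in fdh, against 1.69% of all probe sets, and 7 of 33 higher in lcr, against 1.03%. The counts over 33 genes include listed genes whose entry required a higher level, which raises them. Over the 29 genes named by the platform annotation the counts were 3, 3 and 4, or 10.3%, 10.3% and 13.8%. The median log2 difference of all 33 genes was 0.02 for bdg, 0.05 for fdh and 0.01 for lcr, beside -0.01, -0.01 and 0.00 over all probe sets. That median includes the 13 genes under the lowest array median everywhere. The 3 EXLA genes had medians of 1.57, 0.62 and 2.81 in bdg, fdh and lcr, and the 10 genes XTH1 to XTH26 had 0.72, 2.46 and 2.56. Over the 6 of these 10 that the annotation named, the medians were 0.37, 0.00 and 0.50. The 3 comparisons share the wild-type arrays, so a low or high wild-type array enters all of them.

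None of the 33 genes, and so none of the 29 named by the annotation, was called lower in any mutant. The 4 listed genes had entered as up-regulated, and no list of down-regulated genes was used to name probe sets. A lowered family gene outside the annotation could therefore not enter. Rank Product called 0.0352%, 0.189% and 0.114% of all probe sets lower in bdg, fdh and lcr, and limma 0.0176%, 0.633% and 0.0615%. At an unadjusted p under 0.05 in limma, 0 of the 33 genes were lower in bdg (1.86% of all probe sets), 0 in fdh (7.01%) and 1, EXPB1, in lcr (3.21%). Limma called 2 genes higher in bdg (0.0923% of all probe sets), 3 in fdh (1.53%) and 2 in lcr (0.339%). Those counts were 2, 2 and 1 over the 29 genes named by the annotation. At the unadjusted threshold 4 of 33 genes were higher in bdg (2.37% of all probe sets), 7 in fdh (7.9%) and 9 in lcr (4.7%), and over the 29 genes these counts were 2, 3 and 5. In all, 8 of the 33 genes were called by Rank Product and 3 by limma in at least 1 mutant, 2 of them by both. That leaves 9 genes called by either. These totals include XTH15, XTH22, XTH23 and XTH24, whose entry already required a higher level. Among the 29 genes named by the annotation, Rank Product called EXLA1, EXLA2, XTH18 and XTH19, and limma called XTH19 and XTH27.

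**Figure D2:**
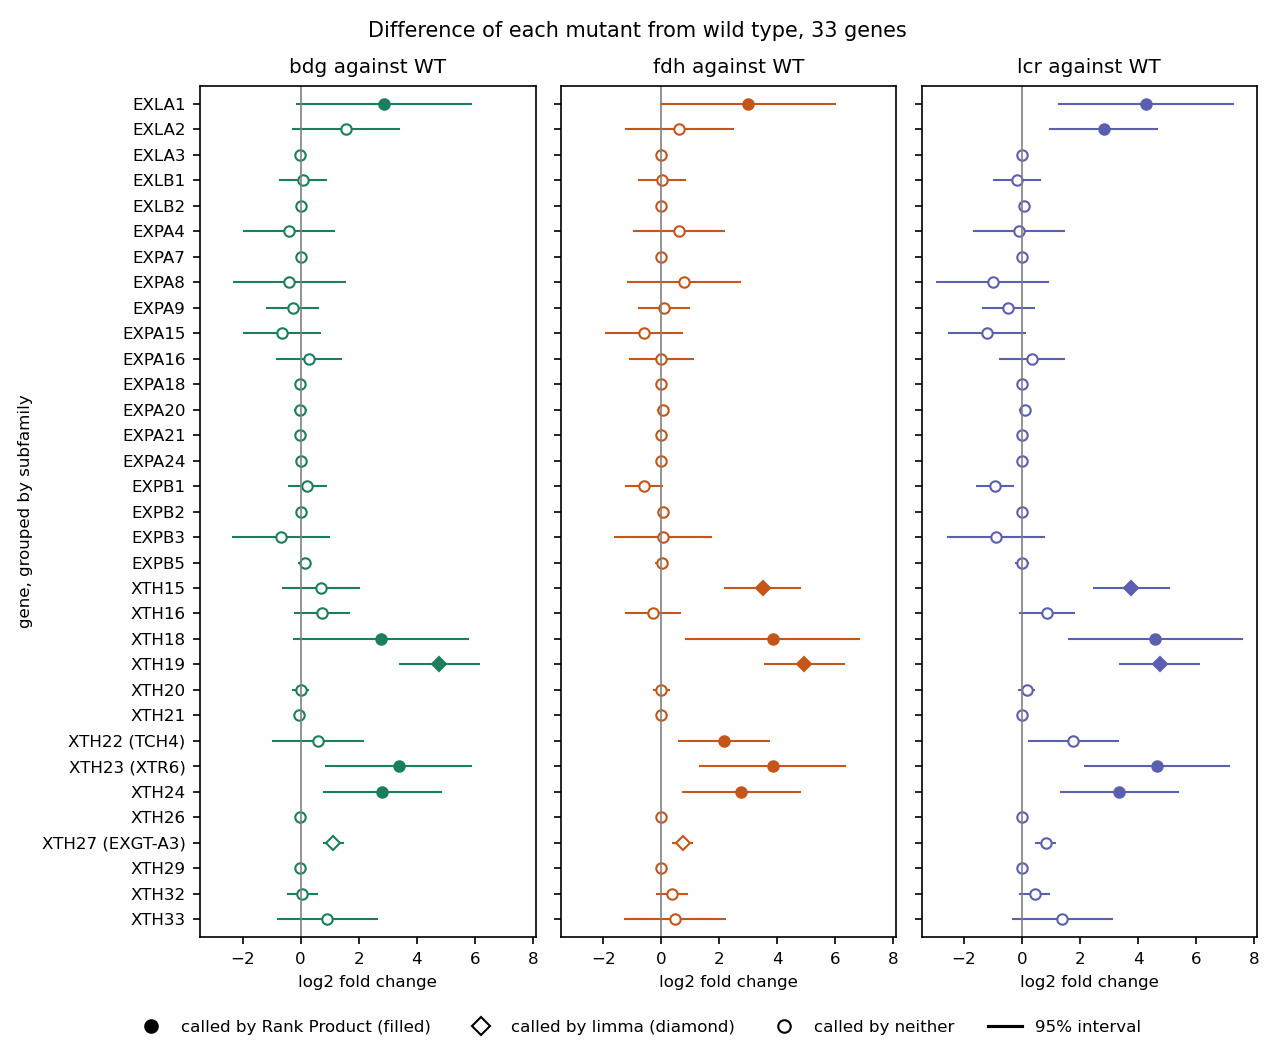
Log2 fold change of each mutant against wild type for the 33 genes, with 95% intervals from limma (n = 3 arrays per genotype). Filled points were called higher by Rank Product, diamonds by limma, and open circles by neither; EXLA1, XTH18, XTH19, XTH23 and XTH24 are filled in all 3 mutants (XTH15, XTH22, XTH23 and XTH24 having entered as listed up-regulated genes), and no called point lies left of 0.

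XTH19 was the only one of the 33 genes that both tests called in all 3 mutants. It encodes an XTH studied in roots and in the healing of cut stems, and its locus, AT4G30290, is next to that of XTH18 on chromosome 4. The wild-type arrays read 3.36, 4.68 and 3.25, the bdg arrays 9.26, 9.0 and 7.37, the fdh arrays 8.65, 9.25 and 8.18, and the lcr arrays 9.12, 8.65 and 7.75. All 9 mutant arrays stood above all 3 wild-type arrays, and the wild-type mean of 3.76 ± 0.79 (SD, n = 3) was under the lowest array median. The log2 fold change was 4.78 ± 0.60 (SE) in bdg, 4.93 ± 0.60 in fdh and 4.74 ± 0.60 in lcr, but on WT arrays 1 and 3 no signal over background was established, so the size of these differences is not settled. Those 2 arrays were then held at the lowest array median, a limit set after the values were seen. By mean log2 values XTH19 was then 15.38-fold higher in bdg, 17.1-fold in fdh and 15.0-fold in lcr. These folds compare means alone and leave out the spread between arrays. Limma gave adjusted p-values of 0.027, 0.0071 and 0.020. No permuted rank product was as small in any mutant, so the pfp was 0 in all 3.
Rank Product kept these calls whichever array was left out. Limma kept the call in fdh, but in bdg it ended without any of 7 single arrays, at adjusted p-values from 0.061 to 0.128, and in lcr without any of 4, at 0.054 to 0.089. The arrays in question were WT 1, WT 3, bdg 1, bdg 2, fdh 1, fdh 2 and lcr 2 for bdg, and WT 1, WT 3, lcr 1 and lcr 2 for lcr.

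XTH18, the neighbour of XTH19 on the same chromosome and known from the root epidermis, read 3.64, 5.24 and 3.15 in wild type. It read 8.21, 7.22 and 4.92 in bdg, 8.80, 8.61 and 6.12 in fdh, and 10.77, 8.87 and 6.15 in lcr. All fdh and lcr arrays were above the wild-type arrays, while bdg array 3 lay below WT array 2. The arrays of 1 genotype differed widely, with an SD of 1.69 in bdg, 1.49 in fdh and 2.33 in lcr. The log2 fold changes were 2.77 ± 1.32 (SE, n = 3) in bdg, 3.84 ± 1.32 in fdh and 4.59 ± 1.32 in lcr, against a wild type with 2 of 3 arrays under the lowest array median. Rank Product called all of them, at a pfp of 0.0064, 0.0022 and 0, whereas limma called none, at adjusted p-values of 1.0, 0.20 and 0.30. The Rank Product call ended in bdg without bdg array 1 (pfp 0.17) or bdg array 2 (0.096), and without WT array 2 and bdg array 1 together (0.067). In fdh it ended without fdh array 1 (0.056) or fdh array 2 (0.051), and in lcr it held without any single array.

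XTH24, first described from meristems and the neighbour of XTH18 on its other side, so that XTH24, XTH18 and XTH19 stand in a row, read 6.12, 6.33 and 3.48 in wild type. It read 8.67, 8.57 and 7.15 in bdg, 8.64, 7.94 and 7.62 in fdh, and 9.83, 9.0 and 7.17 in lcr. Every mutant array was above every wild-type array. The log2 fold changes were 2.81 ± 0.89 (SE), 2.76 ± 0.89 and 3.35 ± 0.89 in bdg, fdh and lcr. Unlike XTH18 and XTH19, XTH24 had 2 wild-type arrays well above the lowest array median, and the lowest wild-type array was again array 3. The probes of near-identical family members can share transcripts, and how far these 3 neighbours were told apart on the array was not tested.

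XTH23, also called XTR6, read 2.83, 3.47 and 2.59 in wild type, all under the lowest array median. The bdg arrays read 7.20, 7.03 and 4.79, the fdh arrays 7.05, 7.66 and 5.67, and the lcr arrays 9.72, 7.88 and 5.24. All 9 mutant arrays were above the lowest array median and above the wild-type arrays. The log2 fold changes were 3.38 ± 1.1 (SE) in bdg, 3.83 ± 1.1 in fdh and 4.65 ± 1.1 in lcr, computed against values not shown to be above background. With the wild-type arrays held at the lowest array median, the mean of XTH23 was 3.44-fold higher in bdg, 4.71-fold in fdh and 8.29-fold in lcr. The spread between arrays is left out of these folds. The lcr arrays were far apart, with an SD of 2.25, and the lowest of them lay below the lowest fdh array.

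XTH15 differed from these genes in where it was high. Wild type read 2.21, 3.25 and 2.35 and bdg 2.68, 3.21 and 4.02, all under the lowest array median. The fdh arrays read 6.57, 6.50 and 5.23 and the lcr arrays 5.83, 7.45 and 5.82, all above it. The log2 fold change was 3.50 ± 0.57 (SE) in fdh and 3.76 ± 0.57 in lcr, and 0.70 ± 0.57 in bdg, where the 95% interval ran from -0.60 to 2.00. With wild type held at the lowest array median, the mean of XTH15 was 2.91-fold higher in fdh and 3.50-fold in lcr, leaving out the spread between arrays. The fdh minus bdg difference was 2.79 on the log2 scale (95% interval 1.50 to 4.09) and the lcr minus bdg difference 3.06 (1.76 to 4.36), again against bdg values not shown to be above background. Limma called neither difference between mutants. XTH15 was listed from these same arrays, so these differences are a description.

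XTH22, known as TCH4, is the touch-induced XTH of Arabidopsis. It lay far above the lowest array median in every genotype. Wild type read 10.28, 10.29 and 8.59, bdg 9.95, 10.91 and 10.09, fdh 11.86, 12.62 and 11.18, and lcr 11.74, 12.51 and 10.21. The fdh arrays were above all wild-type arrays, 2 of 3 lcr arrays were, and bdg overlapped wild type. The log2 fold changes were 0.60 ± 0.68 (SE), 2.17 ± 0.68 and 1.77 ± 0.68 in bdg, fdh and lcr. The 3 other touch genes listed for comparison had no named probe set.

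As a higher level was a condition for entry, the Rank Product calls of these 4 listed genes are no test of a difference. These calls enter the counts over 33 genes alone, and some of them rest on single arrays. That of XTH22 in fdh ended without any of WT array 3, fdh array 1, fdh array 2 and fdh array 3 (pfp 0.107 to 0.242) and with the filter on low values (0.094). That of XTH24 ended in bdg without bdg array 1 (0.075) or bdg array 2 (0.074), in fdh without WT array 3 or any single fdh array (0.065 to 0.106), and in lcr without lcr array 1 (0.070). That of XTH15 in fdh ended without fdh array 1 (0.056) or fdh array 2 (0.055). Those of XTH23 held without any single array, which its entry as an up-regulated gene favoured.

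Of the expansins, only EXLA1 and EXLA2 were called. EXLA1 is an expansin-like gene on chromosome 3 next to EXLA3, which stayed between 2.18 and 2.29 on all arrays. EXLA1 read 5.58, 6.86 and 2.41 in wild type, 9.64, 7.69 and 6.18 in bdg, 8.26, 8.22 and 7.33 in fdh, and 10.98, 9.27 and 7.40 in lcr. All fdh and lcr arrays were above the wild-type arrays, and bdg array 3 was below WT array 2. The log2 fold changes were 2.89 ± 1.32 (SE, n = 3) in bdg, 2.98 ± 1.32 in fdh and 4.26 ± 1.32 in lcr. Rank Product called each, at a pfp of 0.0069, 0.0095 and 0. Limma called none, at adjusted p-values of 1.0, 0.34 and 0.36, with the wild-type SD at 2.29. The Rank Product call in lcr held without any single array, but in bdg it ended without WT array 3 (pfp 0.16), bdg array 1 (0.24) or bdg array 2 (0.070), and in fdh without WT array 3 (0.15), fdh array 1 (0.089) or fdh array 2 (0.085).

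EXLA2, an expansin-like gene whose loss is known to raise resistance to the fungus Botrytis, read 6.0, 5.28 and 3.30 in wild type and 9.04, 7.86 and 6.12 in lcr, with no overlap. The bdg arrays read 7.04, 6.30 and 5.95 and overlapped wild type, and the fdh arrays, at 5.44, 5.57 and 5.44, lay within the wild-type range. The log2 fold change was 2.81 ± 0.81 (SE) in lcr, with a pfp of 0.0087 and a limma adjusted p of 0.30. It was 1.57 ± 0.81 in bdg (pfp 0.11) and 0.62 ± 0.81 in fdh (pfp 0.70), where it turned to -0.16 without WT array 3. The lcr call ended without WT array 3 (pfp 0.055), lcr array 1 (0.16) or lcr array 2 (0.095). In bdg a call was gained without WT array 1 (pfp 0.041). Fdh was lower than lcr by 2.19 on the log2 scale, with a 95% interval of the fdh minus lcr difference from -4.02 to -0.35, which limma did not call (adjusted p = 0.52).

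**Figure D3:**
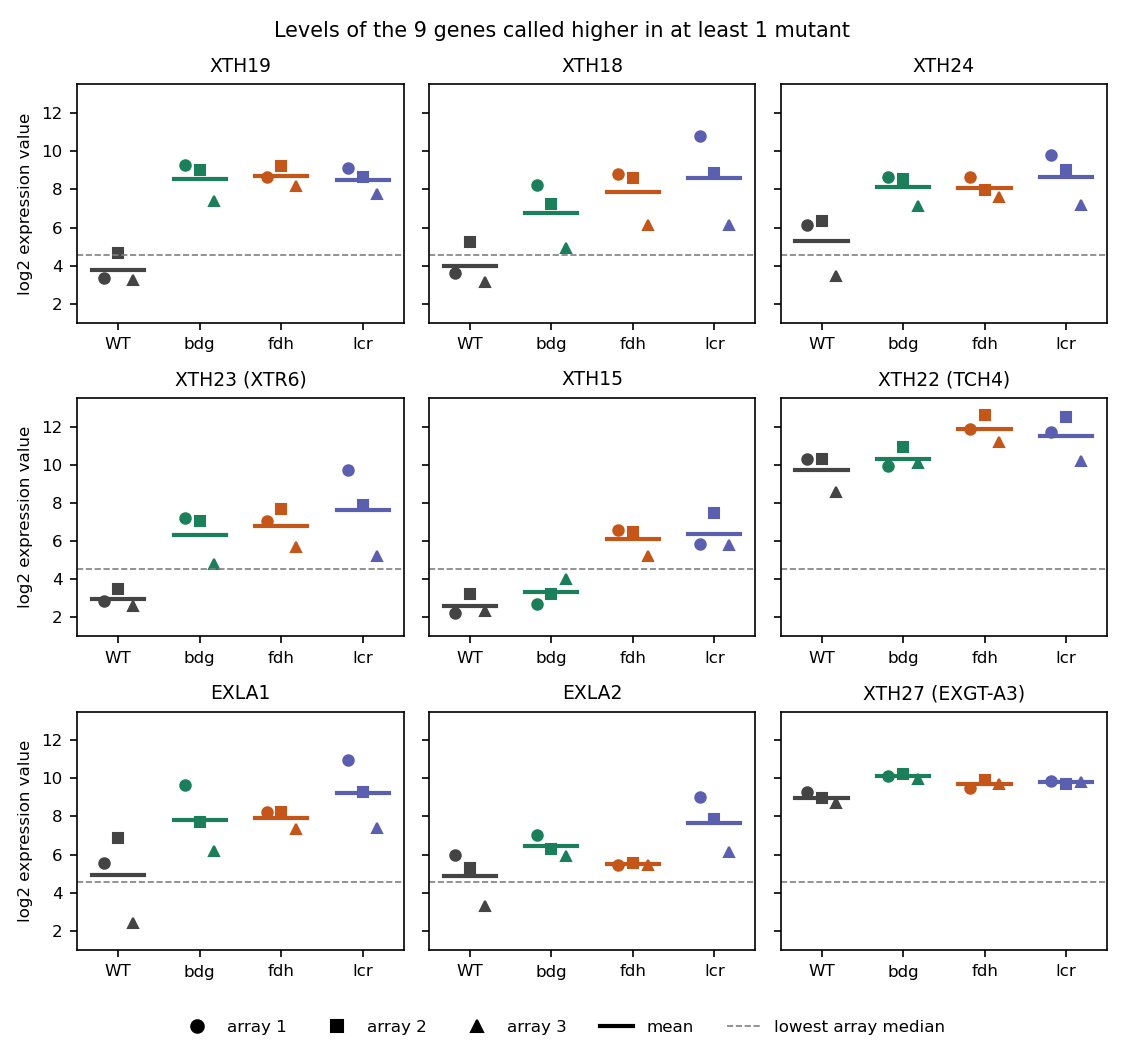
Log2 expression values of the 9 genes called in at least 1 mutant, by genotype, with array 1 as circles, array 2 as squares, array 3 as triangles, means as bars and the lowest array median (4.56) dashed. XTH27 is tight within each genotype, whereas the triangle is the lowest point of every genotype for XTH18, XTH19, XTH23, XTH24 and EXLA1.

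Several of these genes shared an order of the arrays within genotypes. For 5 of the 8 genes called by Rank Product, XTH18, XTH19, XTH23, XTH24 and EXLA1, array 3 was the lowest array of its genotype in all 4 genotypes, wild type included, and for 7 of the 8 in at least 3 genotypes. Over all probe sets 6.65% had array 3 lowest in all 4 genotypes, and the share for at least 3 genotypes was not determined. The 8 genes include XTH15, XTH22, XTH23 and XTH24, which entered as listed up-regulated genes. EXLA1 fell to 2.41 on WT array 3, and lcr array 3 was 7.40 where lcr array 1 was 10.98. The samples were harvested in 3 successive rounds of 1 sample per genotype, but the labels do not say that the replicate number is the round, and the part of the harvest in this order was not tested.

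XTH27, also known as EXGT-A3 and studied in the veins of rosette leaves, was the gene called by limma but not by Rank Product. Its arrays were close together in every genotype. Wild type read 9.26, 8.95 and 8.73, bdg 10.14, 10.20 and 9.98, fdh 9.49, 9.93 and 9.71, and lcr 9.87, 9.71 and 9.81. All mutant arrays were above all wild-type arrays. The difference was 1.13 ± 0.15 (SE, n = 3) in bdg, or 2.18-fold, with a limma adjusted p of 0.030. It was 0.73 ± 0.15 in fdh, or 1.66-fold (adjusted p = 0.040), and 0.82 ± 0.15 in lcr, or 1.76-fold, which was not called (adjusted p = 0.064). The pfp was 0.18, 0.42 and 0.40. These calls lay close to the threshold. In bdg the call ended without any of 10 of the 12 arrays taken singly (adjusted p 0.054 to 0.132; WT array 1 and fdh array 1 were the exceptions), and at 0.24 without WT array 2 and bdg array 1. In fdh it ended without any of 11 (0.059 to 0.135; WT array 1 was the exception) and also with arrays centred on their medians (0.069), with a filter on low values (0.053) and with a variance trend (0.056). The lcr difference was called without WT array 1 (adjusted p = 0.049).

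Among the other XTHs, XTH33 had the largest difference of its subgroup, XTH27 to XTH33, without a call. It read 2.43, 2.41 and 2.70 in wild type, 4.22, 3.70 and 2.37 in bdg, 2.40, 4.17 and 2.39 in fdh, and 5.40, 3.56 and 2.75 in lcr. Only lcr array 1 was above the lowest array median. The log2 fold change in lcr was 1.39 ± 0.75 (SE), with a limma adjusted p of 0.80 and a pfp of 0.17. XTH16 and XTH32, the latter of the XTH group with predicted xyloglucan hydrolases, were well measured, at 7.32 to 9.45 and at 9.74 to 10.74 over the 12 arrays. Neither was called in any mutant, with log2 fold changes from -0.28 to 0.85 for XTH16 and from 0.07 to 0.43 for XTH32.

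The true expansins gave no call in either direction, which at the low shares of all probe sets called sets them apart from no other genes. EXPA4, EXPA8, EXPA9, EXPA15, EXPA16, EXPB1, EXPB3 and the expansin-like EXLB1 rose above the lowest array median on at least 1 array, and together with XTH16, XTH32 and XTH33 they make up the 11 genes so measured that neither test called. Over these 11 genes and 3 mutants the log2 fold changes ran from -1.21 to 1.39, the lowest adjusted p of limma was 0.33 and the lowest pfp 0.17. The 10 EXPA genes had medians of -0.01 in bdg, 0.00 in fdh and -0.01 in lcr. Among them EXPA7, EXPA18, EXPA20, EXPA21 and EXPA24 stayed under the lowest array median on all arrays, which keeps these medians near 0. Over the other EXPA genes the log2 fold changes ran from -1.21 (EXPA15 in lcr) to 0.79 (EXPA8 in fdh).

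By limma EXPB1 came nearest to a lower call, while by Rank Product EXPA15 in lcr had the lowest pfp for a lower level. EXPB1 read 8.10, 8.24 and 8.71 in wild type, 8.65, 8.82 and 8.30 in bdg, 7.75, 7.93 and 7.59 in fdh, and 6.83, 7.49 and 7.93 in lcr. All fdh and lcr arrays lay below all wild-type arrays, and bdg overlapped wild type. The log2 difference was 0.24 ± 0.28 (SE) in bdg, -0.60 ± 0.28 in fdh and -0.93 ± 0.28 in lcr, with limma adjusted p-values of 1.0, 0.37 and 0.33. Its pfp for a lower level was 0.89, 0.47 and 0.40. The lcr minus bdg difference was -1.17 (95% interval -1.80 to -0.54), and the fdh minus bdg difference was -0.83 (-1.46 to -0.21), neither of which limma called (adjusted p = 1.0 and 0.22).

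EXPA15, which had the largest difference among the EXPA genes, read 7.68, 6.41 and 7.88 in wild type, 5.81, 7.71 and 6.55 in bdg, 6.57, 6.58 and 7.05 in fdh, and 5.19, 6.66 and 6.49 in lcr. The lcr difference was -1.21 ± 0.58 (SE), with a limma adjusted p of 0.70 and a pfp of 0.23 for a lower level. The arrays that were low in their genotype were WT array 2, bdg array 1 and lcr array 1. The same 3 arrays were the lowest of their genotypes for EXPA4, EXPA8, EXPA9, EXPA16 and EXPB3, genes singled out after their values were seen. Of these, EXPA9 and EXPA16 lay partly under the lowest array median. The share of all probe sets with this order was not determined. EXPA8 read 4.09 on lcr array 1 beside 7.53 and 7.02 on the other lcr arrays, and EXPA4 read 6.05 on WT array 2 beside 8.06 and 8.34. WT array 2 and bdg array 1 are those of the disturbed ratio, and lcr array 1 is not. Without WT array 2 and bdg array 1 the EXPA15 difference in lcr was -1.67 ± 0.51, and that of EXPB3 went from -0.89 ± 0.73 to -1.49 ± 0.61, with adjusted p-values of 0.31 and 0.49. That of EXPA4 in lcr went from -0.10 ± 0.69 to -0.82 ± 0.28 (limma adjusted p = 0.38). In fdh the sign turned for EXPA4, from 0.60 to -0.11, and for EXPB3, from 0.07 to -0.53. It did not turn for EXPA8 in fdh, which went from 0.79 to 0.49. EXLB1, the measured member of its subfamily, read 7.49, 6.89 and 7.67 in wild type, 6.88, 7.93 and 7.49 in bdg, 7.73, 7.31 and 7.07 in fdh, and 7.31, 7.61 and 6.62 in lcr, with the largest difference, in lcr, at -0.17 ± 0.35.

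**Figure D4:**
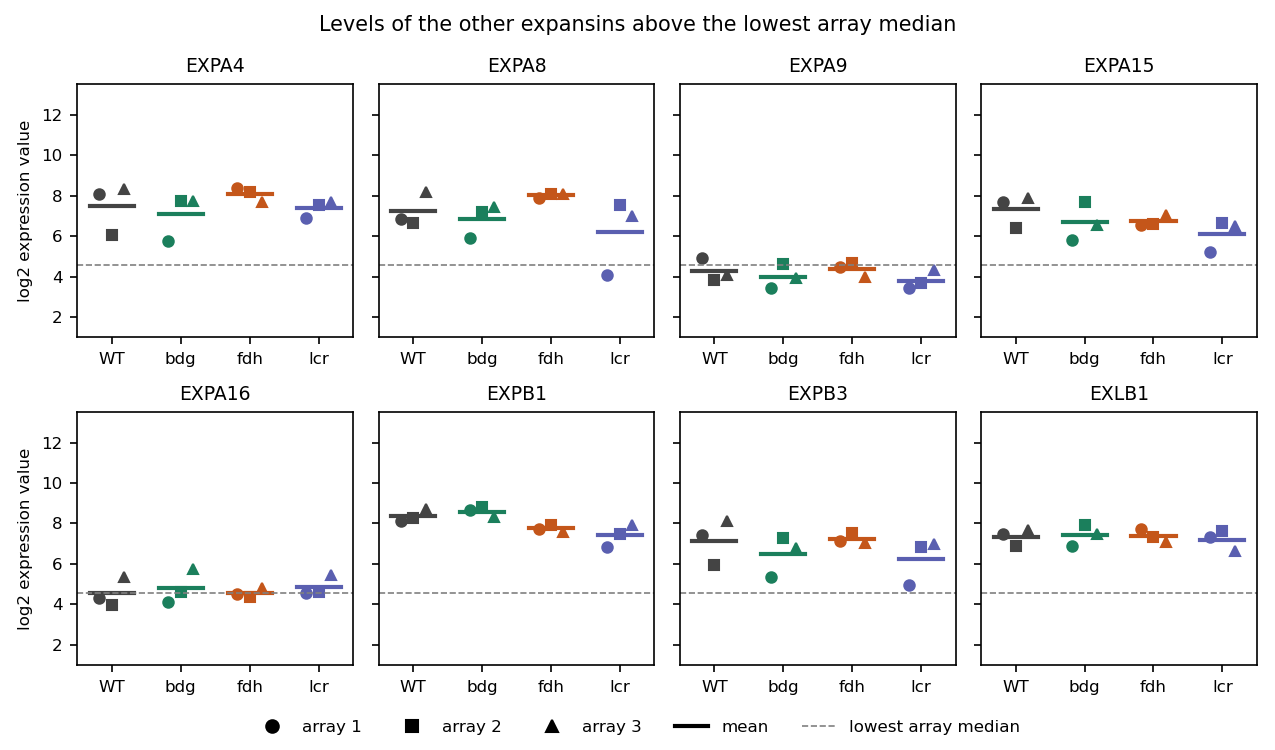
Log2 expression values of the 8 expansins that neither test called and that lay above the lowest array median (4.56, dashed) on at least 1 array, by genotype, with array numbers as symbols and means as bars. Each mutant overlaps wild type except for EXPB1 in fdh and lcr. WT array 2, bdg array 1 and lcr array 1 are the low points of their genotypes for EXPA4, EXPA8, EXPA9, EXPA15, EXPA16 and EXPB3.

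The mutants were then compared with each other. Limma called 0 of the 33 genes in fdh against bdg (0.761% of all probe sets), 0 in fdh against lcr (0.0879%) and 0 in lcr against bdg (0.0044%). The counts at an unadjusted p under 0.05 were 5 of 33 (12.9% of all probe sets), 2 of 33 (7.84%) and 2 of 33 (3.1%), and over the 29 genes named by the annotation 3, 2 and 1. The 5 of fdh against bdg were EXPB1, XTH15, XTH16, XTH22 and XTH27, those of fdh against lcr were EXLA2 and XTH16, and those of lcr against bdg were EXPB1 and XTH15. XTH27 was lower in fdh than in bdg by a log2 difference of 0.39, with the fdh minus bdg value at -0.39 (95% interval -0.72 to -0.06, adjusted p = 0.28). For XTH19, whose level was so near in the 3 mutants, the differences were 0.15 (-1.21 to 1.52) for fdh minus bdg, 0.19 (-1.18 to 1.56) for fdh minus lcr and -0.03 (-1.40 to 1.33) for lcr minus bdg. These intervals leave room for differences of more than 2-fold either way.

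Genes that make or trim xyloglucan, and so supply or shorten the substrate of the XTHs, were looked at as a list. Of 18 listed genes 5 had a probe set of their own, CSLC4, CSLC5, CSLC6, CSLC8 and CSLC12, which encode glucan synthases of the xyloglucan backbone or their relatives. Neither test called any of them higher or lower in any mutant. The low shares of all probe sets called, given above, make the lack of a call among 5 genes uninformative. The median log2 difference was -0.09 in bdg, -0.08 in fdh and 0.09 in lcr. Each time it was that of CSLC12, which lay under the lowest array median on every array. In the same order CSLC4 differed by 0.26, 0.86 and 0.67, and CSLC5 by -0.40, -0.45 and -0.49. Of 10 listed cellulose synthesis genes, COB alone was measured and was not called.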

How the data were processed

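The authors deposited log2 expression values of ATH1 arrays, 1 column per array, made with GCRMA according to the submitters' processing notes, a method that models background from probe sequence, scales arrays to each other and combines the probes of a set. Its version is not given in the sources used here. The 64 control probe sets were left out, and no filter on low values was used. Such values compress differences near background, and arrays give no read depth, so the number of arrays limits the precision. The platform annotation named 13513 probe sets with 1 gene, and 235 more were named through the study's list of up-regulated genes, matched within that list; 2 probe sets that name several family genes were left out.

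Rank Product was written anew with numpy from its description, over all 9 ratios of arrays with 100 permutations. Limma 3.58.1 in R 4.3.3 fitted all 12 arrays in one model without a block, and its p-values were adjusted by Benjamini-Hochberg over 22746 probe sets. Both scripts were tested on simulated data. Groups came from the sample labels. Genes with values in every group were those called by either test, that with the largest difference in each subfamily, and XTH18, XTH19, XTH23 and EXLA1. The members, lists and tests were chosen with earlier results of these data known. Alternatives were a filter on low values (above 5 on at least 3 arrays), a second quantile normalization, centring on array medians, a replicate block, a variance trend, only the groups compared, a pfp under 0.01, each array left out, and WT array 2 with bdg array 1 left out. No sequence or genome was used. BODYGUARD, FIDDLEHEAD and LACERATA have no named probe set here (probe sets annotated FDH and LCR belong to other loci of the same symbol), so the mutated genes gave no check of the labels. P-values measure the spread between replicates of pooled plants.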

Additional observations from a re-analysis of the deposited data

How the results depend on the processing

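Of the 27 log2 fold changes against wild type of the 9 called genes, under 19 alternatives each, 1 of 513 values had the other sign, that of EXLA2 in fdh (range without single arrays -0.16 to 1.19). These genes were picked for their differences on the same arrays, and the alternatives reuse those values. A kept sign was therefore likely from the start, and many of the calls ended under some alternative. Without single arrays the number of genes called higher by Rank Product ranged from 2 to 6 for bdg, 2 to 7 for fdh and 5 to 7 for lcr. The number called higher by limma ranged from 0 to 1 for bdg, 1 to 2 for fdh and 0 to 2 for lcr, while that called between fdh and bdg ranged from 0 to 1 (XTH15, without fdh array 3 or lcr array 2). When the model held the compared groups alone, limma called 0 genes in each mutant, with fewer arrays to estimate the spread. Without WT array 2 and bdg array 1 it called 0 in bdg and 1 in lcr; with the filter on low values it called 1, XTH15, between fdh and bdg. The cause was not tested.

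With a replicate block limma called 1 gene higher in bdg, 7 in fdh and 4 in lcr, whereas Rank Product counts stayed within 1.5 times. Among the genes named by the annotation, limma gained XTH18 in fdh (adjusted p 0.038) and lost XTH27 in bdg (0.061). Its other gains, XTH22 in fdh and XTH23 and XTH24 in fdh and lcr, were of listed genes. Their entry already required a higher level, so these gains are no test of a difference. Of 18 same-numbered pairs of arrays, 14 had deviations from the group means that correlated over 0.1 (lowest -0.36, highest 0.73, and 0.37 to 0.73 among arrays numbered 3), and 7 of 12 arrays correlated best with an array of their own number. As not every pair was over 0.1 and the labels do not tie a number to a harvest round, the numbers were not taken as pairs, although the arrays numbered 3 deviated together.

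Uncalled values near 0 changed sign: EXLB1 in fdh was -0.022 after a second quantile normalization, -0.093 after centring and -0.21 without WT array 2 and bdg array 1. Without single arrays EXLB1 ranged from -0.17 to 0.36 in bdg, -0.21 to 0.18 in fdh and -0.40 to 0.11 in lcr. XTH33 in fdh ranged from -0.12 to 0.77. XTH19 ranged from -0.43 to 0.51 for fdh minus bdg, -0.19 to 0.50 for fdh minus lcr and -0.62 to 0.35 for lcr minus bdg, which was 0.33 without WT array 2 and bdg array 1.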
